A study of Mus musculus with 250 samples.

Results

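The cells described here are single epidermal cells of the Lrig1 lineage taken from a distal memory region of mouse tail skin, set against cells of the same lineage from a control region without memory. They were chosen by the region label alone, which gave 81 distal and 84 control cells, 165 of the 250 cells of the series. The remaining 85 cells came from the wound bed. All cells came from Lrig1CreER/Rosa-TdTomato mice, in which an inducible Cre under the Lrig1 gene switches on a red reporter, so that cells that expressed Lrig1 at induction and their progeny stay labelled. Distal and control cells carry the same alleles. Both groups were collected at the time labelled 8w_pw1, which the labels do not spell out, and were sorted for surface Sca1, the product of Ly6a, to enrich for upper hair follicle cells. In batch 1 there were 32 distal and 28 control cells, and in batch 2 there were 49 distal and 56 control cells. Each set of a region and batch sat on a plate of its own, so region and plate cannot be told apart within a batch. The labels name no animal. A region thus counts as a single sample, the 2 batches are given side by side, and regions were not tested against each other.

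Lrig1 is a marker of stem cells in the upper follicle, the part of the follicle that joins the hair canal to the surface epidermis and to the sebaceous gland. After skin is wounded, progeny of these cells can move into the surface epidermis and take part in repair. The series title concerns a lasting memory of injury in progenitors that lie at a distance from the wound. The comparison of distal with control cells asks which genes differed in cells that were away from the wound itself.

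Libraries were made with Smart-Seq2, which covers whole transcripts and here yields reads rather than molecules. The 165 cells held between 5974 and 3119120 reads (median 57691), and 4 distal cells of batch 1 with over 500000 reads held 72.8% of that plate's reads. Every cell was therefore given equal weight. A gene's level is its mean over cells of its reads relative to all nuclear-encoded reads, as CPM, the usual depth-scaled count, and its share is the percentage of cells with a read after each cell was thinned to 10000 such reads. Thinning kept 31 distal and 27 control cells in batch 1, and 42 distal and 54 control cells in batch 2. Intervals are exact 95% Clopper-Pearson intervals, which cover counting of cells alone.

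Few genes differed between distal and control cells in the same direction in both batches. The genes that did included protease inhibitors of the stefin A family, the nuclear RNAs Malat1 and Neat1, and the receptor Tnfrsf19 among those higher in distal cells. The upper hair follicle genes Cst6 and Defb6 were among those lower. Of all genes, 1935 were considered, those read in 20% or more of the thinned cells of either region in each batch. The size rule then asked that, in both batches, the log2 ratio of mean CPM plus 10 was at least 1 in size and the share differed by at least 10 percentage points in the same direction. By this rule 73 genes (3.77%) were higher and 11 genes (0.568%) were lower in distal cells, and 32 genes (1.65%) met both sizes in opposite directions in the 2 batches. Across the 1935 genes the log2 ratios of the batches were nearly unrelated (Pearson r 0.10, Spearman rho 0.05, as a description across genes, which are not independent). In batch 1 the median gene stood at 0.38 on the log2 scale and 12.8 points of share, and in batch 2 at 0.04 and 3.44 points. With the differences centred on these medians, 18 genes were higher and 20 lower. The excess of higher genes therefore depends on the centring.

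**Figure D1:**
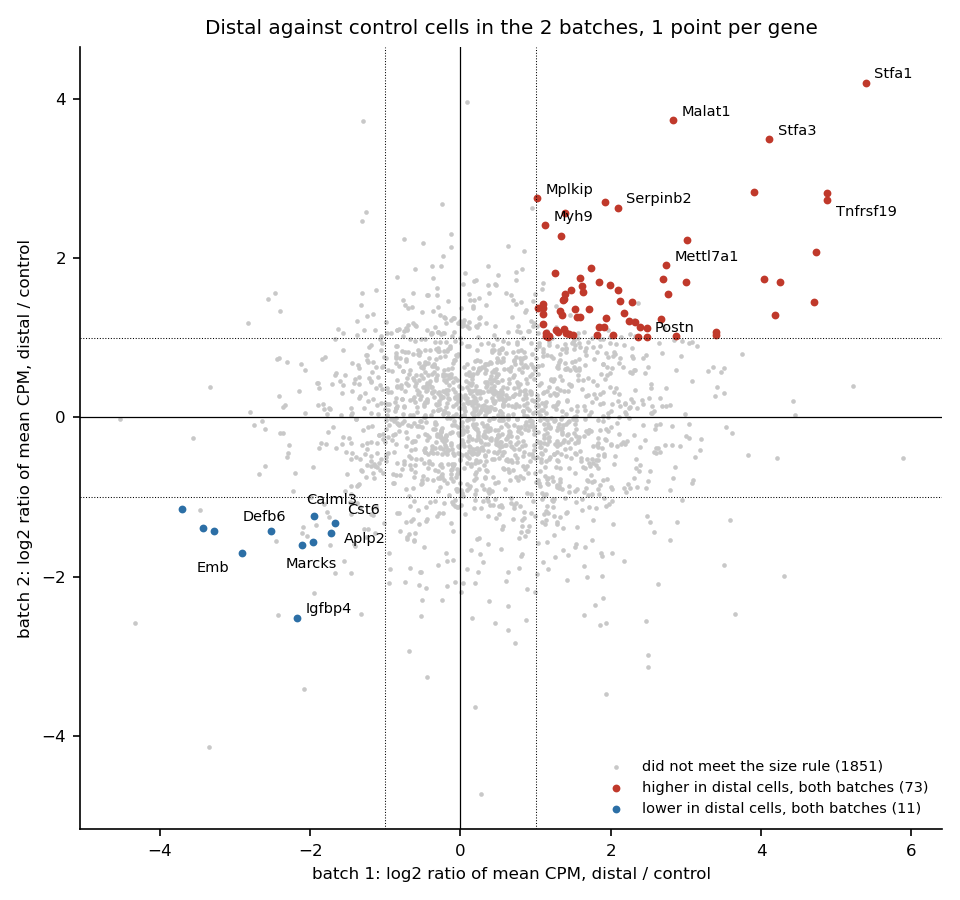
Log2 ratio of mean CPM plus 10, distal over control, in batch 1 (x axis) and batch 2 (y axis) for the 1935 considered genes, 1 point a gene, with dotted lines at 1 and -1. Red points are the 73 genes higher and blue points the 11 genes lower in distal cells by the size rule; the grey cloud shows no common axis between the batches.

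Distal cells held more kinds of RNA per cell than control cells, and the genes met by the size rule were spread over most distal cells. At 10000 reads the median cell had 1383 genes in distal and 963 in control cells of batch 1, and 1631.5 in distal and 1364 in control cells of batch 2. Of the 73 higher genes, the median cell held a read of 28 in distal and 10 in control cells of batch 1, and of 26 in distal and 11.5 in control cells of batch 2. These genes were chosen for such a difference, so the counts describe how it is shared among cells. No thinned distal cell held fewer than 9 of them. Of the 11 lower genes, the median cell held 3 in distal and 6 in control cells of batch 1, and 2.5 in distal and 5 in control cells of batch 2. Mitochondrial transcripts took a median of 39.2% of a cell's reads in distal and 23.995% in control cells of batch 1, and 28.7% in distal and 21.7% in control cells of batch 2. Predicted genes, several of which are repeat-like, took a median of 2.54% of nuclear reads in distal and 12.9% in control cells of batch 1, but 3.94% in distal and 2.01% in control cells of batch 2. The part of these measures in the gene differences was not tested. Among cells with 1000 to 1800 genes, 61 genes were higher and 35 lower, and 75 met the sizes in opposite directions. Only 28 of those 61 and 4 of those 35 were among the 73 and 11 genes of all cells.

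**Figure D2:**
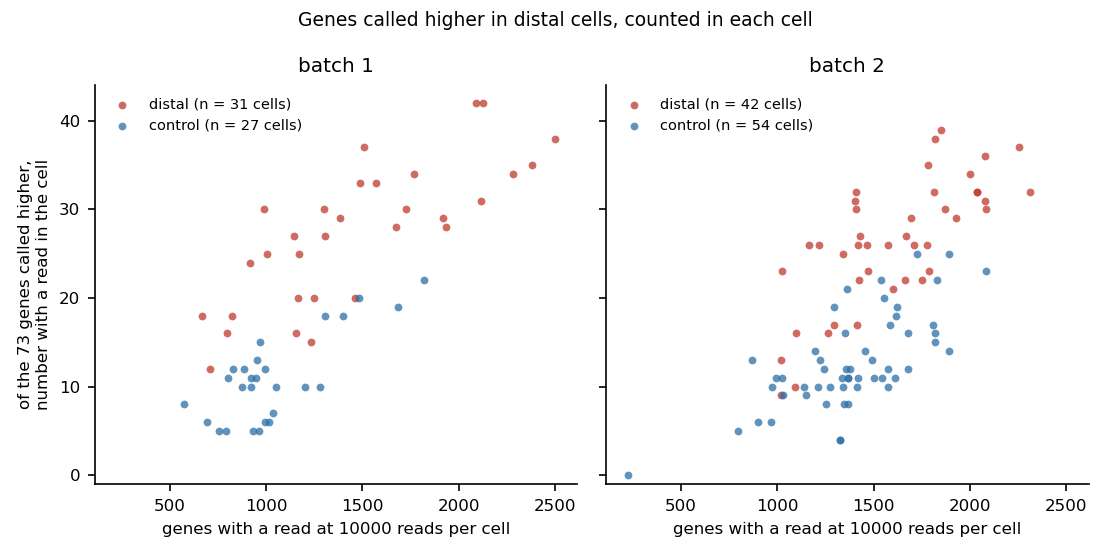
Each point is a cell thinned to 10000 reads, by its number of genes with a read (x axis) and how many of the 73 higher genes had a read in it (y axis), with distal cells in red and control cells in blue. Distal cells lie to the right of control cells and above them, with medians of 28 and 10 higher genes in distal and control cells of batch 1, and of 26 and 11.5 in distal and control cells of batch 2.

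Stefin A genes were higher in distal cells. Stefins are small inhibitors of cysteine proteases such as cathepsins, and in stratified epithelium they are built into the cornified envelope. Of 10 members on the family list, 4 were considered, and Stfa1, Stfa3 and Csta1 met the size rule, against 3.77% of all considered genes. The list's medians on the log2 scale were 2.60 and 3.06 in batches 1 and 2. Stfa1 and Csta1 passed the filter for considered genes only through distal cells, where they were higher. The count of genes that met the rule and the list's medians are thus partly set by that filter. Stfa3 passed the filter in distal and in control cells of both batches. Stfa1, Stfa3 and Csta1 lie in a cluster on chromosome 16 (GRCm38). Stfa1 spans chr16:36276951-36285373 on the plus strand, Stfa3 spans chr16:36450537-36455392 on the minus strand and Csta1 spans chr16:36119946-36131241 on the minus strand.

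The promoters of these 3 genes are shown because the genes were higher together. They are RefSeq windows of 300 bases (GRCm38.p6), from 250 before to 50 after RefSeq's start, read 5′ to 3′ along the gene. The Stfa1 window is chr16:36276898-36277197 (plus strand), the Stfa3 window chr16:36455343-36455642 (minus strand) and the Csta1 window chr16:36131140-36131439 (minus strand). Capitals mark AGATAA, a motif that GATA factors can bind, and TGANTCA, the motif of AP-1.
Stfa1: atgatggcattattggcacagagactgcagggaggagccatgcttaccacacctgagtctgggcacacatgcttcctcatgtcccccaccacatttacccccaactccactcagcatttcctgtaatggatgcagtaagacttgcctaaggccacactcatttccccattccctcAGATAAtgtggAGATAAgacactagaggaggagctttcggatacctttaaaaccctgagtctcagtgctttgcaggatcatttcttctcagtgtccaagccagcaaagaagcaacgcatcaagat
Stfa3: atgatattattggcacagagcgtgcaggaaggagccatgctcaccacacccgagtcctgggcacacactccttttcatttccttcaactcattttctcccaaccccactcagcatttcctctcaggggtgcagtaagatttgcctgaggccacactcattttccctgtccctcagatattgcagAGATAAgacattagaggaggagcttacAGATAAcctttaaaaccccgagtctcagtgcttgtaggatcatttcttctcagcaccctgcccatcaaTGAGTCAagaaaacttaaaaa
Csta1: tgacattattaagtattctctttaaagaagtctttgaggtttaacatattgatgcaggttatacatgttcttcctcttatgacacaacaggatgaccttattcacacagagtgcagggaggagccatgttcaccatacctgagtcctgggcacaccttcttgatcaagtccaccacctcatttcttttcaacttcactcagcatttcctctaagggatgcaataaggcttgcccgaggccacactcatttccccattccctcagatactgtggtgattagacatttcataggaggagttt
The Stfa1 and Stfa3 windows were 82.8% identical over 296 aligned base pairs, and Csta1 was 84.2% identical to Stfa1 over 209. AGATAA began at bases -75 and -64 in Stfa1 and at -66 and -39 in Stfa3, all on the gene's strand, and 11.2% of 32851 mouse promoter windows held it on either strand. TGANTCA, which reads the same on both strands, occurred once, at base 30 of Stfa3, and 7.81% of windows held it. The Csta1 window held neither motif. TATAAA was found in none of the 3, against 13.6% of all windows. GENCODE M21 starts Stfa1 and Csta1 further upstream, so the windows of these genes refer to RefSeq's start only. No data here bear on binding at these letters.

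Stfa3 had the higher level of the pair. It stood at 8115 CPM in distal and 460.7 CPM in control cells of batch 1, and at 2305 CPM in distal and 195.9 CPM in control cells of batch 2. A read was present in 23 of 31 distal cells and 9 of 27 control cells of batch 1 (74.2%, interval 55.4 to 88.1%, and 33.3%, 16.5 to 53.96%), and in 19 of 42 distal cells and 12 of 54 control cells of batch 2 (45.2%, 29.9 to 61.3%, and 22.2%, 12.04 to 35.6%). The intervals did not overlap in batch 1 and overlapped in batch 2. The log2 ratios were 4.11 and 3.49. The level came mostly from few cells: the highest 3 cells of each plate held 58.5% of its summed Stfa3 CPM in distal and 87.5% in control cells of batch 1, and 65.2% in distal and 65.9% in control cells of batch 2. At least 5000 CPM, a limit chosen after the values were seen, was reached by 10 of 32 distal and 1 of 28 control cells in batch 1, and by 5 of 49 distal and 0 of 56 control cells in batch 2.

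Stfa1 was close to absent from control cells. It stood at 455.9 CPM in distal and 1.08 CPM in control cells of batch 1, and at 529.3 CPM in distal and 19.3 CPM in control cells of batch 2 (log2 ratios 5.39 and 4.20). A read was present in 11 of 31 distal cells and 1 of 27 control cells of batch 1 (35.5%, 19.2 to 54.6%, and 3.704%, 0.0937 to 18.97%), and in 11 of 42 distal cells and 3 of 54 control cells of batch 2 (26.2%, 13.9 to 42.04%, and 5.56%, 1.16 to 15.4%). The control cells of batch 1 held 7 Stfa1 reads in all (counting interval 2.81 to 14.4). Stfa1 was read almost only where Stfa3 was, in 11 of its 11 thinned distal cells of batch 1 and in 10 of 11 of batch 2. Of the 50-base stretches of Stfa1 transcripts, 22.5% also occur in transcripts of other genes, foremost its paralogs BC100530 and BC117090, so its reads are partly uncertain. Stfa3 shares none.

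Csta1 was lower in level than either. It stood at 162.8 CPM in distal and 70.6 CPM in control cells of batch 1, and at 119.7 CPM in distal and 38.3 CPM in control cells of batch 2 (log2 ratios 1.10 and 1.42). The fourth considered member, Cstdc5, missed the level in batch 1 (0.95) and stood at 2.63 in batch 2, with shares 20.2 and 22.2 points higher in distal cells. A read of Stfa1, Stfa3 or Csta1 was present in 23 of 31 distal and 10 of 27 control cells of batch 1, and in 20 of 42 distal and 15 of 54 control cells of batch 2. All 3 were read in 8 and 7 distal cells of batches 1 and 2 and in 0 and 0 control cells.

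The stefin A difference was present in cells of both keratin states. Krt5 and Krt14 mark the basal layer of the epidermis, and Krt1 and Krt10 mark the suprabasal layers. Where Krt5 and Krt14 together exceeded Krt1 and Krt10, Stfa3 was read in 11 of 19 distal and 7 of 22 control cells of batch 1, and in 11 of 29 distal and 8 of 40 control cells of batch 2. In the other cells it was read in 12 of 12 distal and 2 of 5 control cells of batch 1, and in 8 of 13 distal and 4 of 14 control cells of batch 2. These other distal cells averaged 11230 CPM of Stfa3 in batch 1 and 5766 CPM in batch 2, against 1805 and 187.9 CPM in the other control cells. They include 1 distal and 1 control cell of batch 2 with no read of any of the 4 keratins. Among basal-keratin cells alone Stfa3 still met the size rule (log2 ratios 5.13 and 1.61), whereas Stfa1 (2.92 and 4.23) was present in too few of them to be considered and Csta1 stood at 0.86 and 0.94. Such cells made up 62.5% of distal and 82.1% of control cells in batch 1, and 67.3% of distal and 75% of control cells in batch 2.

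Distal cells lay between wound bed and control cells in how many expressed stefin A genes. Stfa1 was read in 35.5% of distal, 55.6% of wound bed and 3.704% of control cells in batch 1, and in 26.2% of distal, 55.6% of wound bed and 5.56% of control cells in batch 2. The differences between distal and wound bed cells were not tested. Stfa3 did not follow the same order in level, at 8115 CPM in distal and 4400 CPM in wound bed cells of batch 1 and at 2305 CPM in distal and 6955 CPM in wound bed cells of batch 2.

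Serpinb2 and Postn, which encode proteins linked to tissue repair, were higher in distal cells. Serpinb2, an inhibitor of plasminogen activators, stood at 199.8 CPM in distal and 39.2 CPM in control cells of batch 1, and at 150.8 CPM in distal and 15.9 CPM in control cells of batch 2 (log2 ratios 2.09 and 2.63). Serpinb2 reads occurred in 8 of 31 distal and 2 of 27 control cells of batch 1, and in 14 of 42 distal and 2 of 54 control cells of batch 2. With Stfa1 and Stfa3 it made up the 3 considered members of the 20 on the wound keratinocyte list, and all 3 were higher (medians 4.11 and 3.49). Stfa1 and Serpinb2 passed the 20% filter only through distal cells, where they were higher, so this count lends no support of its own. Krt6a and Krt16, wound keratins on the same list, were read in too few cells to be considered, with log2 ratios of -1.05 and -0.41 for Krt6a and -0.55 and -2.20 for Krt16. Serpinb2 transcripts share 10.4% of their 50-base stretches with the neighbouring Serpinb10, which also met the rule (1.17 and 1.01).

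Postn encodes periostin, a secreted protein of the extracellular matrix. It stood at 3922 CPM in distal and 695 CPM in control cells of batch 1, and at 1749 CPM in distal and 861.4 CPM in control cells of batch 2 (log2 ratios 2.48 and 1.01). A read was present in 23 of 31 distal and 15 of 27 control cells of batch 1, and in 31 of 42 distal and 23 of 54 control cells of batch 2. Wound bed cells did not share this, since Postn was read in 29.6% and 26.7% of them in batches 1 and 2, against 74.2% and 73.8% of distal cells. The Postn call sits at the edge of the rule in batch 2 and was lost when mitochondrial reads were kept in the total and in 7 other settings. Postn was named through the list of the hair follicle bulge and outer root sheath. It was the 1 of 5 considered genes there to meet the rule, beside 3.77% of all considered genes. That list's medians were -0.32 and 0.53, with Krt15 at -0.69 and -0.48 and Col17a1 at 2.36 and 1.44.

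**Figure D3:**
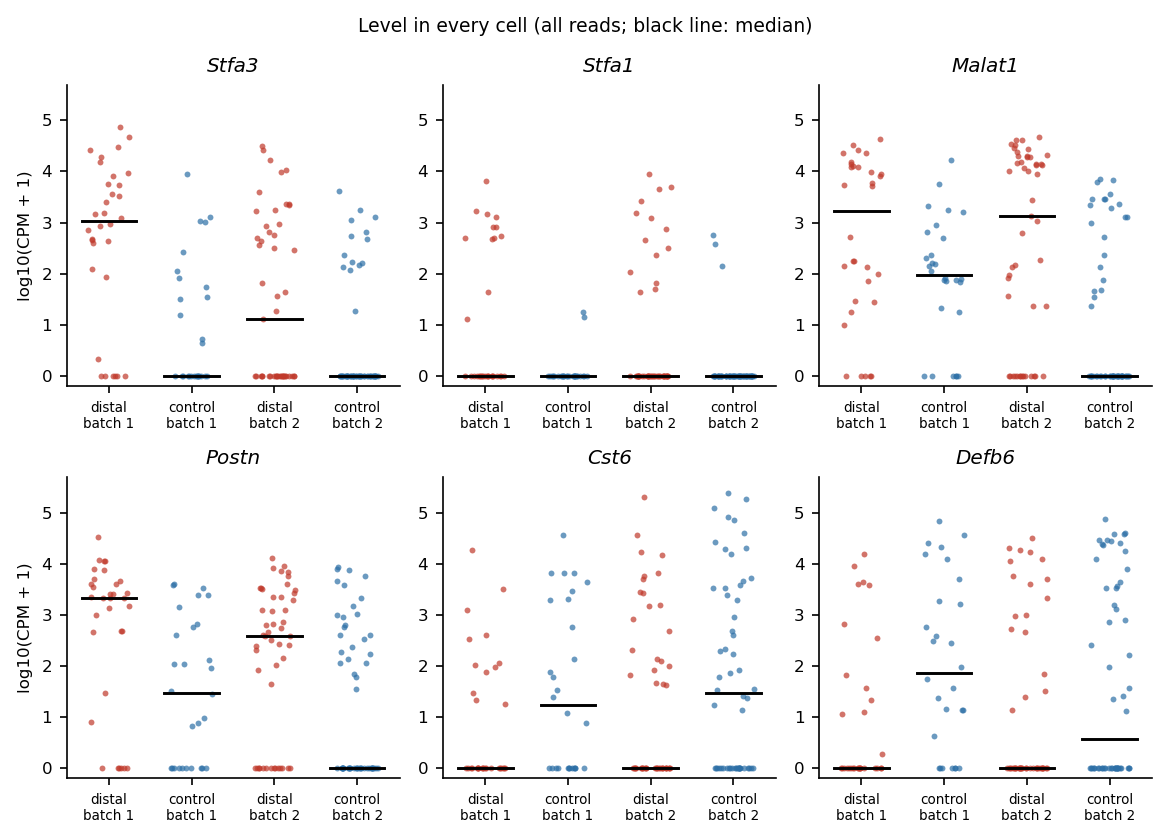
Level of 6 genes in every distal (red) and control (blue) cell, as log10 of CPM plus 1 from all reads, with the median as a black line. Stfa3, Stfa1, Malat1 and Postn have more high cells in distal than in control plates, and Cst6 and Defb6 have fewer.

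The nuclear long non-coding RNAs Malat1 and Neat1 were higher in distal cells. Malat1 sits in nuclear speckles, where splicing factors gather, and Neat1 is the scaffold of paraspeckles. They are neighbours on chromosome 19 (Malat1 at chr19:5795690-5802672 and Neat1 at chr19:5824708-5845478, both on the minus strand, GRCm38). Malat1 stood at 8032 CPM in distal and 1117 CPM in control cells of batch 1, and at 10390 CPM in distal and 773.9 CPM in control cells of batch 2 (log2 ratios 2.84 and 3.73). Reads occurred in 20 of 31 distal and 13 of 27 control cells of batch 1, and in 27 of 42 distal and 18 of 54 control cells of batch 2. The gap was wider in level than in share: 16 of 32 distal and 2 of 28 control cells of batch 1, and 23 of 49 distal and 3 of 56 control cells of batch 2, held at least 5000 CPM. The median cell stood at 2894 CPM in distal and 95.5 CPM in control cells of batch 1, and at 1326 CPM in distal cells and 0 in control cells of batch 2. Malat1 lost its call, through its share, at a limit of 20 points, under another random draw, with mitochondrial reads kept in the total, with predicted genes left out of it and with centred differences, while its mean log2 ratio stayed between 2.82 and 4.24 over all settings.

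Neat1 stood at 422 CPM in distal and 129.5 CPM in control cells of batch 1, and at 620.5 CPM in distal and 202.2 CPM in control cells of batch 2 (log2 ratios 1.63 and 1.57). Neat1 reads occurred in 14 of 31 distal and 7 of 27 control cells of batch 1, and in 21 of 42 distal and 17 of 54 control cells of batch 2. Both RNAs were read together in 12 distal and 4 control cells of batch 1, and in 20 distal and 9 control cells of batch 2. Among cells with 1000 to 1800 genes, Malat1 kept log2 ratios of 2.53 and 3.17, whereas Neat1 stood at -0.42 and 0.99. Of the 6 considered RNAs on the nuclear long non-coding list these 2 met the rule, beside 3.77% of all considered genes. The list's medians were 1.395 and 0.66. Gas5 stood at 0.44 and 0.39, Snhg1 at 0.43 and -0.75 and Tug1 at 1.16 and -0.26.

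The sixth, Xist, the RNA that silences an X chromosome in female cells, narrowly missed the level in batch 2. It stood at 1467 CPM in distal and 227.4 CPM in control cells of batch 1, and at 599.1 CPM in distal and 309.5 CPM in control cells of batch 2 (log2 ratios 2.64 and 0.93). Xist reads occurred in 15 of 31 distal and 5 of 27 control cells of batch 1, and in 22 of 42 distal and 9 of 54 control cells of batch 2, a gap of 29.9 and 35.7 points. The labels give no sex. Of 4 genes of the Y chromosome looked for, Ddx3y and Uty had a row, and neither had a read in any of the 165 cells, while all 4 plates held Xist reads. Whether animals of different sex contributed to the plates was not tested further.

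Most splicing factors did not meet the rule. Srsf5 and Srsf2, serine and arginine-rich proteins that guide splice site choice, were the 2 of 22 considered splicing and export genes that did, beside 3.77% of all considered genes. Srsf5 passed the 20% filter only through distal cells, where it was higher. Srsf5 was read in 20 of 31 distal and 5 of 27 control cells of batch 1 (64.5%, 45.4 to 80.8%, and 18.5%, 6.30 to 38.1%), and in 16 of 42 distal and 9 of 54 control cells of batch 2 (38.1%, 23.6 to 54.4%, and 16.7%, 7.92 to 29.3%). Its log2 ratios were 1.62 and 1.65. Srsf2 (1.09 and 1.17) lost its call in 11 of 18 other settings. The list's medians were 0.87 and 0.14. In both batches 12 of the 22 genes were higher and 4 lower, beside 631 higher and 344 lower of all 1935 considered genes. Syncrip, an RNA-binding protein outside the list, stood at 506.9 CPM in distal and 217.8 CPM in control cells of batch 1, and at 281.5 CPM in distal and 133.2 CPM in control cells of batch 2 (1.18 and 1.03).

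Tnfrsf19 and Mettl7a1 were almost unread in control cells. Tnfrsf19, also called Troy, is a receptor of the tumour necrosis factor family and a target of Wnt signalling. It stood at 310.7 CPM in distal and 0.882 CPM in control cells of batch 1, and at 131.1 CPM in distal and 11.2 CPM in control cells of batch 2 (log2 ratios 4.88 and 2.73). A read was present in 12 of 31 distal and 1 of 27 control cells of batch 1 (38.7%, 21.8 to 57.8%, and 3.704%, 0.0937 to 18.97%), and in 12 of 42 distal and 3 of 54 control cells of batch 2 (28.6%, 15.7 to 44.6%, and 5.56%, 1.16 to 15.4%). The whole control plate of batch 1 held 2 Tnfrsf19 reads (counting interval 0.242 to 7.22). No other of the 6 considered Wnt pathway genes met the rule, and that list's medians were -0.12 and 0.06.

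Mettl7a1 encodes a methyltransferase-like protein. It was read in 9 of 31 distal and 0 of 27 control cells of batch 1, where 0 allows a share of up to 11.1% by the limit of 3 counts (exact interval 0 to 12.8%), and in 12 of 42 distal and 1 of 54 control cells of batch 2. Its levels were 65.9 CPM in distal and 1.37 CPM in control cells of batch 1, and 102.2 CPM in distal and 19.9 CPM in control cells of batch 2 (2.74 and 1.91). Of its 50-base stretches 17.2% occur in paralogs such as Mettl7a2, so its reads are partly uncertain.

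Some genes of nutrient use were higher in distal cells. Slc38a2, a carrier of neutral amino acids, had the widest gap in share, by its smaller batch value, among the named genes that were higher. It was read in 12 of 31 distal and 3 of 27 control cells of batch 1, and in 23 of 42 distal and 15 of 54 control cells of batch 2, at 213.8 CPM in distal and 71.96 CPM in control cells of batch 1 and 309.8 CPM in distal and 145.1 CPM in control cells of batch 2 (1.45 and 1.04). Without 1 distal cell of batch 2 that carried T cell transcripts, described at the end, its log2 ratio there was 0.76 and it no longer met the rule. The same cell decided the calls of Syncrip (0.96 without it, in batch 2) and of Myh9, the non-muscle myosin heavy chain (1.13 and 2.41, and 2.43 in batch 2 without it), whose shares differed by 11.5 and 10.6 points. Atf4, a transcription factor that raises genes of amino acid supply under stress, stood at 144.9 CPM in distal and 24.1 CPM in control cells of batch 1, and at 89.4 CPM in distal and 29.99 CPM in control cells of batch 2 (2.18 and 1.31). Its call was lost in 10 of 18 other settings, another random draw among them. Of 7 considered genes of amino acid metabolism, Slc38a2 and Atf4 met the rule, beside 3.77% of all considered genes. Atf4 in both batches and Slc38a2 in batch 1 passed the 20% filter only through distal cells, where they were higher. This count thus lends no support of its own. The list's medians were 1.45 and 0.19, against 0.38 and 0.04 over all considered genes.

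Ldha, which turns pyruvate into lactate, was the 1 of 9 considered glycolysis genes to meet the rule, beside 3.77% of all considered genes. It stood at 455.5 CPM in distal and 180.1 CPM in control cells of batch 1, and at 632.1 CPM in distal and 295 CPM in control cells of batch 2 (1.29 and 1.07). Ldha reads occurred in 24 of 31 distal and 12 of 27 control cells of batch 1, and in 31 of 42 distal and 26 of 54 control cells of batch 2. Gapdh stood at 0.23 and 0.33, Pkm at -1.76 and -0.18 and Pgk1 at 2.32 and 0.34, and the list's medians were 0.23 and 0.33. None of 49 considered nuclear genes of the respiratory chain met the rule, beside 3.77% higher and 0.568% lower of all considered genes. Their medians were -0.07 and -0.22, although mitochondrial transcripts took more of the reads of distal cells. In both batches 18 of them were lower and 6 higher, beside 344 lower and 631 higher of all 1935 considered genes.

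Other genes named by rank mark differentiating epithelium or handle RNA and lipid. Mt4, a metallothionein of stratified epithelium, stood at 1168 CPM in distal and 527.2 CPM in control cells of batch 1, and at 1361 CPM in distal and 648 CPM in control cells of batch 2 (1.13 and 1.06). Outside the cells with basal keratins in excess, Mt4 reads occurred in 12 of 12 distal and 4 of 5 control cells of batch 1 (3057 and 2916 CPM), and in 9 of 13 distal and 8 of 14 control cells of batch 2 (3019 and 1738 CPM). Among basal-keratin cells alone Mt4 did not meet the rule. Calm5, a calmodulin-related protein of skin, was read in 13 of 31 distal and 3 of 27 control cells of batch 1, and in 14 of 42 distal and 6 of 54 control cells of batch 2 (2.76 and 1.55). Acer3, an alkaline ceramidase, had log2 ratios of 1.59 and 1.75. Dusp11, a phosphatase of RNA, had ratios of 1.55 and 1.26, Churc1, a zinc-finger protein, of 1.38 and 1.12, and Mplkip, whose human counterpart is mutated in a brittle hair disorder, of 1.02 and 2.75. The shares of these 4 genes were 19.6 to 24.9 points higher in distal cells in both batches.

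**Figure D4:**
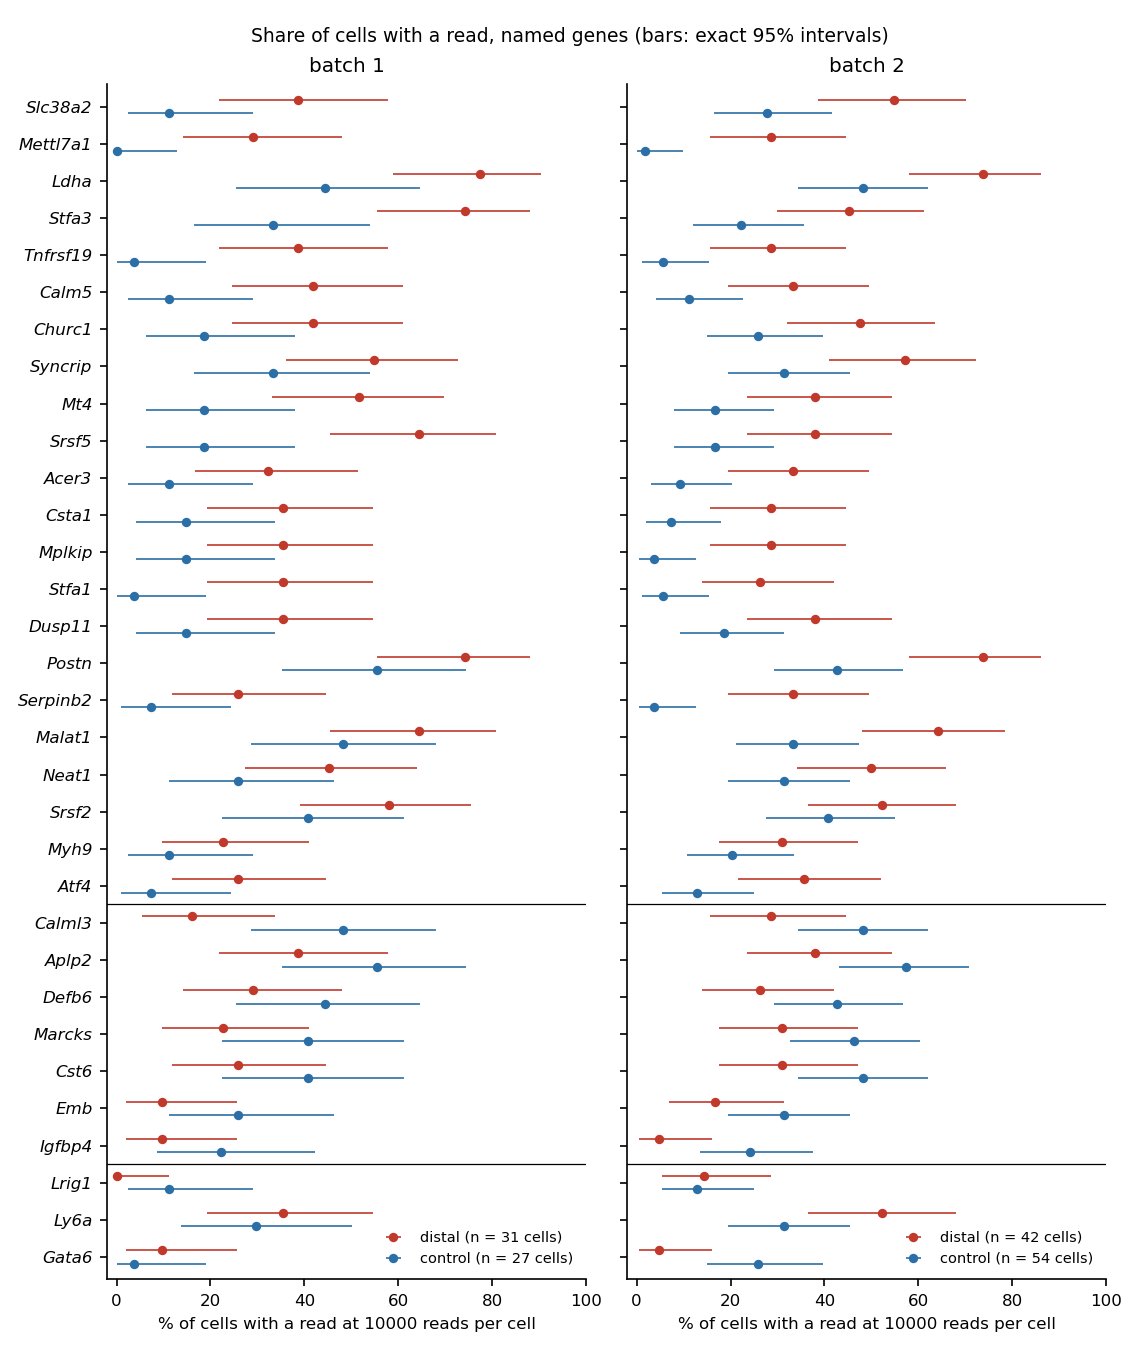
Share of cells with a read at 10000 reads per cell for the named genes in batch 1 (left) and batch 2 (right), distal cells (red, upper point) and control cells (blue, lower point), with exact 95% intervals. Above the first line are the genes higher in distal cells, then those lower, and at the bottom Lrig1, Ly6a and Gata6, which met the rule in neither direction.

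Some of the remaining higher genes, chosen for mention after their values were seen, encode regulators. Fgfbp1, which carries fibroblast growth factors, was read in 74.2% of distal and 14.8% of control cells in batch 1, and in 47.6% of distal and 29.6% of control cells in batch 2 (log2 ratios 1.74 and 1.88). Maf, a transcription factor, was read in 64.5% of distal and 18.5% of control cells in batch 1, and in 35.7% of distal and 16.7% of control cells in batch 2 (3.01 and 1.69). Clock, a core transcription factor of the circadian rhythm, stood at 1.92 and 2.71. Hpgd, which breaks down prostaglandins, stood at 4.73 and 2.08, and Trp53, the p53 tumour suppressor, at 1.36 and 1.47. These genes are no independent evidence for any theme.

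Several genes of the upper hair follicle were read in fewer distal than control cells, although nearly every cell of both regions held a read of at least 1 gene on that list. Of 20 genes on that list 8 were considered, and Cst6 and Defb6 met the rule as lower, beside 0.568% of all considered genes. Of the 8, 6 were lower and 1 higher in both batches, beside 344 lower and 631 higher of all 1935 considered genes. The list's medians were -0.80 and -0.71, against 0.38 and 0.04 over all considered genes. Cst6 encodes cystatin E/M, an inhibitor of cysteine proteases in the follicle canal. It stood at 758.7 CPM in distal and 2434 CPM in control cells of batch 1, and at 6101 CPM in distal and 15270 CPM in control cells of batch 2 (log2 ratios -1.67 and -1.32). High levels were held by few cells. At least 5000 CPM of Cst6 was reached by 1 of 32 distal and 4 of 28 control cells in batch 1. In batch 2 it was reached by 7 of 49 distal and 11 of 56 control cells. The highest cell of batch 2 stood at 203300 CPM in distal and 245200 CPM in control cells, and the median cell at 0 and 28.8 CPM. A read was present in 8 of 31 distal and 11 of 27 control cells of batch 1 (25.8%, 11.9 to 44.6%, and 40.7%, 22.4 to 61.2%), and in 13 of 42 distal and 26 of 54 control cells of batch 2 (30.95%, 17.6 to 47.1%, and 48.1%, 34.3 to 62.2%). The intervals overlapped in both batches, and another random draw of 10000 reads ended the call.

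Defb6, a beta-defensin, stood at 1181 CPM in distal and 6809 CPM in control cells of batch 1, and at 2690 CPM in distal and 7266 CPM in control cells of batch 2 (-2.52 and -1.43). Defb6 reads occurred in 9 of 31 distal and 12 of 27 control cells of batch 1, and in 11 of 42 distal and 23 of 54 control cells of batch 2. Krt79, a keratin of the follicle's duct, differed in share and not in level. It was read in 2 of 31 distal and 11 of 27 control cells of batch 1, and in 8 of 42 distal and 20 of 54 control cells of batch 2, while its levels were 2033 CPM in distal and 2333 CPM in control cells of batch 1, and 2103 CPM in distal and 2455 CPM in control cells of batch 2. The Krt79-positive distal cells were thus few and high. Krt17 stood at -0.43 and -0.63, and Aqp3, a water and glycerol channel, went the other way (1.86 and 0.16, with shares 19.9 and 13.8 points higher in distal cells). Without the cells in which predicted genes exceeded 10% of reads, which removed 19 of 28 control cells of batch 1, the list's median was 0.52 in batch 1 and -0.93 in batch 2.

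The other genes lower in distal cells were Calml3, Aplp2, Marcks, Emb and Igfbp4. Calml3, a calmodulin-like protein of epithelium, was read in 5 of 31 distal and 13 of 27 control cells of batch 1 (16.1%, 5.45 to 33.7%, and 48.1%, 28.7 to 68.1%), and in 12 of 42 distal and 26 of 54 control cells of batch 2 (28.6%, 15.7 to 44.6%, and 48.1%, 34.3 to 62.2%), with log2 ratios of -1.95 and -1.24. Igfbp4, which binds insulin-like growth factors, was read in 3 of 31 distal and 6 of 27 control cells of batch 1, and in 2 of 42 distal and 13 of 54 control cells of batch 2 (-2.17 and -2.51). Emb, the surface glycoprotein embigin, stood at -2.90 and -1.71, and Marcks, a substrate of protein kinase C that binds actin, at -2.10 and -1.60. Aplp2, a relative of the amyloid precursor protein, stood at -1.72 and -1.45. Centring the differences on the median gene could not end the call of a lower gene, because the medians taken off were positive in both batches. Among basal-keratin cells Calml3, Defb6, Marcks, Cst6 and Igfbp4 lost their call. Defb6, Marcks and Igfbp4 also lost it with predicted genes out of the total. A further 4 lower genes were predicted and repeat-like, among them Gm10801, at a mean of 0.173% of nuclear reads in distal and 1.88% in control cells of batch 1, and of 0.273% in distal and 0.715% in control cells of batch 2.

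Egr2, an immediate early transcription factor noticed after the values were seen, came close to the rule. It was read in 10 of 31 distal and 15 of 27 control cells of batch 1, and in 18 of 42 distal and 36 of 54 control cells of batch 2, with log2 ratios of -2.22 and -0.92. None of the 5 considered genes of the AP-1 and immediate early list met the rule, beside 3.77% higher and 0.568% lower of all considered genes. The list's medians were 0.01 and -0.90.

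Of the genes of the lineage label and the sort, Ly6a was higher in distal cells by level in both batches, and Lrig1 differed in direction. Lrig1 was read in 0 of 31 distal and 3 of 27 control cells of batch 1, and in 6 of 42 distal and 7 of 54 control cells of batch 2. The 0 allows a share of up to 9.68% by the limit of 3 counts (exact interval 0 to 11.2%) at 10000 reads. With all reads, Lrig1 was found in 5 of 32 distal and 5 of 28 control cells of batch 1, and in 9 of 49 distal and 13 of 56 control cells of batch 2. Ly6a, which encodes the Sca1 antigen used in the sort, stood at 262.8 CPM in distal and 123.1 CPM in control cells of batch 1, and at 626.9 CPM in distal and 295.4 CPM in control cells of batch 2 (log2 ratios 1.03 and 1.06), with 19% of its 50-base stretches shared with relatives such as Ly6c1. It missed the rule because its share was 5.85 points higher in batch 1, against 20.9 points in batch 2. The mean log2 ratio of Ly6a lay between -0.11 and 1.12 over 18 other settings, so its higher level depends on the setting. Gata6, which encodes a transcription factor found in the duct, was read in 3 of 31 distal and 1 of 27 control cells of batch 1, and in 2 of 42 distal and 14 of 54 control cells of batch 2. Lrig1 and Gata6 were read in too few cells to be considered.

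Among the other lists of layers and pathways few genes met the rule, beside 3.77% higher and 0.568% lower of all considered genes. In lists this short, no call at all is near that share. Some medians lay above that of all considered genes (0.38 and 0.04). These included the lists of Serpin B (1.61 and 0.66, 4 genes), histone and DNA methylation enzymes (1.32 and 0.57, 5 genes) and the hemidesmosome and basement membrane (1.11 and 0.71, 4 genes). Of 9 considered basal genes none met the rule, with medians of 0.94 and 0.31. Krt5 stood at 0.97 and 1.15, Krt14 at 0.15 and 0.52, and Col17a1, a collagen of the hemidesmosome, at 2.36 and 1.44 with shares 19.6 and 3.17 points higher in distal cells. The suprabasal list had medians of 0.41 and 0.50, and its Krt10 was read in 21 of 31 distal and 12 of 27 control cells of batch 1 and in 26 of 42 distal and 23 of 54 control cells of batch 2, at log2 ratios of 1.24 and -0.46. Of 6 considered genes of interferon response and antigen presentation none met the rule (0.40 and 0.37). Chromatin lists had few considered members: 2 of 36 Polycomb genes and 5 of 27 of chromatin remodelling. For histone and DNA methylation 5 of 31 were considered, and for histone acetylation 3 of 24. None of these 15 genes met the rule, which is near the share over all considered genes (3.77% higher and 0.568% lower). At this depth most chromatin genes were read in too few cells to show a difference.

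**Figure D5:**
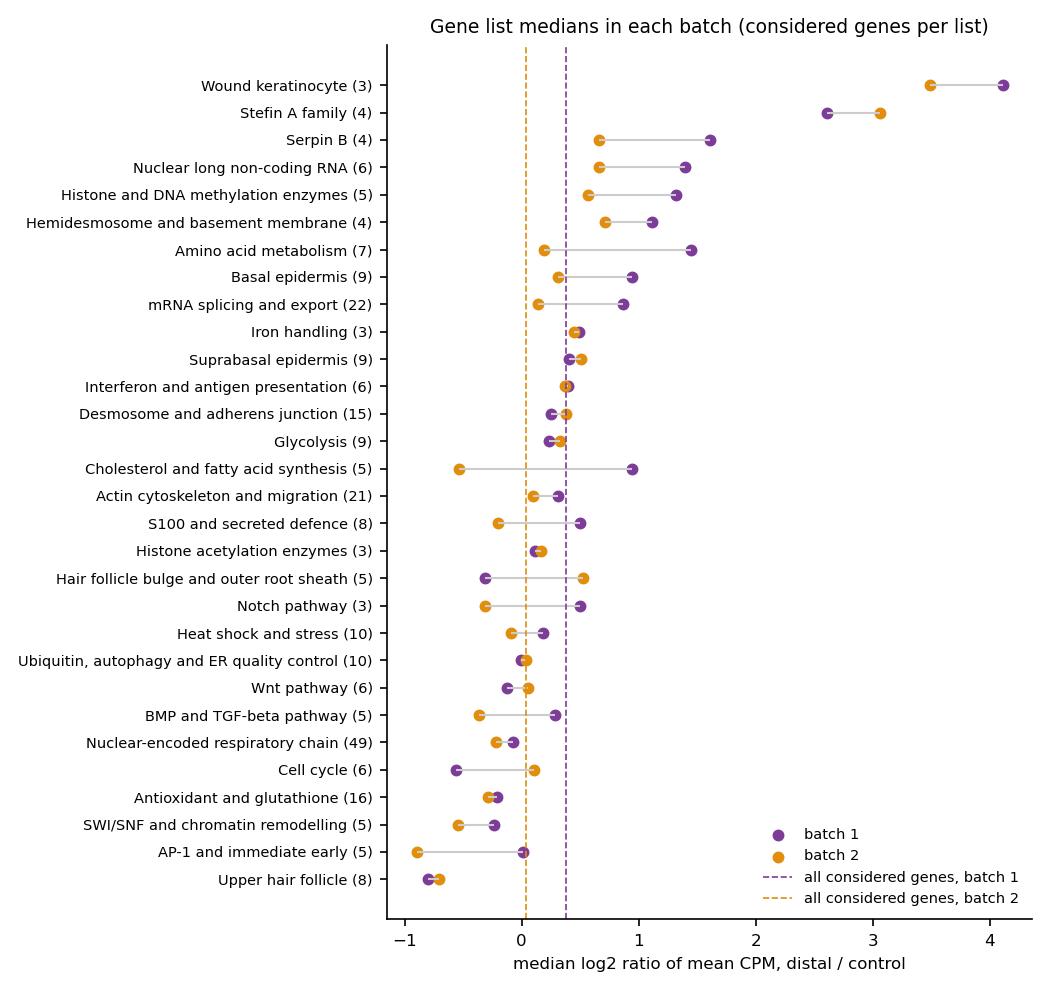
Median log2 ratio of mean CPM plus 10, distal over control, for each gene list with at least 3 considered genes (number in brackets), in batch 1 (purple) and batch 2 (orange). Dashed lines mark the median of all considered genes, 0.38 in batch 1 and 0.04 in batch 2; the stefin A and wound keratinocyte lists share Stfa1 and Stfa3, and the upper hair follicle list lies below the dashed lines in both batches.

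Cells of types other than epidermis, hair follicle and sebaceous gland were close to absent, with 1 exception. A distal cell of batch 2 with 11736 nuclear reads held 12440 CPM of T cell markers, with 67 reads of Nkg7, 57 of Ptprc, 14 of Trbc2 and 3 of Cd3g, and no read of Krt5, Krt14, Krt1 or Krt10. The next highest of the 165 cells held 750.5 CPM. Leaving this cell out gave 72 higher and 11 lower genes. Apart from it, Ptprc was read in no distal cell and in 1 control cell, while Trbc2 alone was read in 10 of 32 distal and 1 of 28 control cells of batch 1, and in 15 of 49 distal (this cell included) and 5 of 56 control cells of batch 2. Summed over a list and averaged over cells, melanocyte markers held at most 36.2 CPM, fibroblast markers at most 47.3 CPM, endothelial markers at most 6.91 CPM and Merkel cell markers at most 3.39 CPM in any of the 4 plates. Markers of Langerhans cells and macrophages held 90.4 CPM in distal and 244.7 CPM in control cells of batch 1, and 336.1 CPM in distal and 247.2 CPM in control cells of batch 2. This list also holds Ptprc, which stood at 4857 CPM in the distal cell of batch 2 with T cell transcripts. The list's only considered gene, Epcam, had log2 ratios of -1.40 and -0.02. Sebaceous gland markers averaged 1023 CPM in distal and 1903 CPM in control cells of batch 1, and 1098 and 1665 CPM in batch 2. The highest cell held 8223 CPM in distal and 21730 CPM in control cells of batch 1, and 9041 and 37000 CPM in batch 2. The 2 considered sebaceous genes, Scd1 (-1.26 and -1.50) and Mgst1 (-0.72 and -0.26), did not meet the rule. Whether sebaceous cells differed in number was not tested.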

How the data were processed

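The deposited table holds whole-number read counts for 27003 gene symbols in 250 single cells, named by cell title. Per the labels, cells were processed by Smart-Seq2. Seurat, Salmon 0.13.1 and R 4.0.3, and the builds mm10 and GRCm38, are named in the submitters' processing notes without a role or order, and how the counts were made from reads is not given in the sources used here. No pair of the 165 cells had identical counts, no doublets were called and no cell was filtered. Mitochondrial transcripts were left out of the totals, CPM were averaged per plate, and each cell was thinned once to 10000 reads (Python 3.11.15, numpy 2.4.6, seed 1), which left out 11 cells. The script that applies the rule was tested on simulated data. Up to 15 genes a direction were named, ranked by the smaller batch difference in share. Lrig1, Ly6a, Gata6 and every list member that met the rule were named as well. Of each list described, up to 4 members that did not meet it could be named, by mean CPM. Pkm and Pgk1 were named outside this choice. Predicted, ribosomal protein and small RNA genes were left out of the ranking. Of 847 genes on 41 lists, 44 had no row. The cells, genes and lists were chosen with earlier results of these data known. Positions came from GENCODE M21, in which 26417 symbols matched. Intervals cover counting error only. A set of 16 alternatives was planned, with plate sums scaled by TMM (edgeR 4.0.16, R 4.3.3) among them, and 4 were added after seeing the data.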

Additional observations from a re-analysis of the deposited data

How the results depend on the processing

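Of the 73 genes higher, 11 lower and 32 opposite, the counts moved by over 1.5 times as follows, and the cause was not tested. Plate sums scaled by TMM gave 46 higher and 5 lower genes. A pseudocount of 50 CPM gave 28 higher and 17 opposite. A detection filter of 10% gave 124 higher; one of 40% gave 14 higher, 7 lower and 11 opposite, from 730 genes. The level alone gave 45 lower and 92 opposite. A share difference of 20 points gave 16 higher, 2 lower and 5 opposite. Thinning to 5000 reads gave 44 higher, and mitochondrial reads in the total gave 28 higher. Without cells rich in predicted genes 59 were opposite. Basal-keratin cells gave 7 lower and 67 opposite. Of the alternatives chosen after seeing the data, leaving predicted genes out of the total gave 4 lower, centring gave 18 higher and 20 lower, and cells with 1000 to 1800 genes gave 35 lower and 75 opposite. Either batch alone gave 336 to 705 higher and 84 to 153 lower genes. Which genes were called also changed where the count moved less. Another random draw gave 59 higher genes, of which 51 were among the 73. Basal-keratin cells gave 95, of which 37 were among the 73. Without cells rich in predicted genes there were 77, with 47 among the 73. Of the 46 under TMM, 28 were among the 73. A pseudocount of 1 CPM gave 80 and kept all 73.

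Of the 29 named genes that met the rule, 1, Stfa3, met it in all 18 settings that used both batches. Tnfrsf19 lost its call only at the 40% filter, Stfa1 there and among basal-keratin cells. TMM-scaled plate sums ended 14 of the 29 calls. Centring, which could end only calls of higher genes, ended 14. No mean log2 ratio of a called gene changed sign in any setting. No paired analysis was possible because each region has 1 plate a batch and cell numbers pair no cells; the batch label pairs the plates, and every comparison was made within it. Without animals, the 2 batches give the only sign of repeatability, and reads without molecular identifiers limit the precision of shares.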
